A study of Mus musculus with 12 samples.

Results

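The genes described here encode the proteasome and its close helpers, including the subunits of the immunoproteasome that interferon induces. They were taken by name: every transcript cluster of the array with a single platform symbol that starts with Psma, Psmb, Psmc, Psmd, Psme or Psmg followed by a digit. This gave 49 genes of 19938 named genes on the array, measured by 55 of 21789 transcript clusters with a single symbol, and the brightest cluster over all arrays stood for each gene. Psmb8, Psmb9, Psmb10, Psme1 and Psme2, the 5 interferon-inducible genes among them, are given apart from the other 44. The prefix also caught 2 genes whose products are not proteasome subunits: Psmc3ip, a partner of the meiotic recombinases, and Psme3ip1, a protein that binds the activator PA28gamma.

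RNA was measured in CD8+CD28low cells of mice, T cells with regulatory activity that are set apart by little surface CD28. Cells came from Aire-deficient mice (AIRE ko in the labels, here KO) or wild-type mice (WT), both of strain C57Bl/6. Aire is a transcriptional regulator known for switching on tissue antigens in thymic epithelium, and the series as a whole concerns how such KO cells fare in controlling experimental colitis. Cells were either activated, by a culture of 96 h in which anti-CD3 antibody was combined with allogenic APC (antigen-presenting cells), or native, that is freshly isolated. The 4 groups (activated KO, activated WT, native KO, native WT) held 3 arrays each. The titles call these biological replicates, and the sources used here do not give the number of mice behind an array, the Aire allele or how cells were purified after culture. The p-values below therefore measure the spread between these arrays, and their number limits the precision.

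The proteasome is the protease that degrades proteins tagged with ubiquitin. Its core, the 20S particle, is a stack of rings of alpha subunits, which form the gate, and beta subunits, some of which carry the catalytic sites. The 19S cap binds ubiquitin chains, unfolds the substrate with its ATPases and feeds it into the core. Under interferon-gamma the catalytic beta subunits Psmb6, Psmb7 and Psmb5 are replaced in newly made particles by Psmb9, Psmb10 and Psmb8, and the PA28 activator made of Psme1 and Psme2 is induced. The resulting immunoproteasome shapes the peptides shown by MHC class I molecules and is the main form in resting lymphocytes.

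Levels are the authors' RMA values on the log2 scale, which ran from 3.81 to 15.41 over the whole table. Background was read from 1027 olfactory receptor genes: a gene counts as at background in a group if none of the 3 arrays exceeded their 95th percentile there. The defining CD8 T cell genes Cd8a, Cd8b1 and Cd3e were above that percentile on all 12 arrays, and Cd4 was at or under it on all 12. Cd28 RNA was between 9.98 and 11.97 on all arrays, and without a CD28-high group its level could not be checked against the label. Aire itself was at or under the percentile on all 12 arrays, KO and WT, and so could not check the genotype labels. Activated KO array 3 stood apart: it had the narrowest interquartile range (2.19, against 2.45 to 2.89 elsewhere), the highest median of the olfactory receptor genes (6.34, against 5.49 to 5.95) and a second principal component of -63.79. Several results that rest on it, among them those of Psmb8 and Psmb9, are given with and without it. Xist was 4.98 on activated KO array 1 and 5.26 on native KO array 1, against 9.34 to 11.47 on the other arrays, and the comparisons of KO with WT were not adjusted for this. Each experiment number in the sample descriptions covered a single state, so state and experiment number cannot be told apart.

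Promoters of 4 members are shown: Psmb8 and Psmb9, the inducible genes called on activation, Psme1, an inducible gene that was not called, and Psma1, the constitutive gene with the largest rise in KO cells. They run from 250 bases before to 50 bases after the annotated gene start (RefSeq, GRCm38.p6), 5′ to 3′ on the strand of the gene. Capitals mark any match, on either strand, to the antioxidant response element core (TGACNNNGC or TGAGNNNGC), the interferon-stimulated response element (GAAA and GAAA with any 2 bases between them), the gamma-activated site (TTCNNNGAA) or the NF-Y box (CCAAT).
Psmb9, chr17:34187281-34187580, minus strand: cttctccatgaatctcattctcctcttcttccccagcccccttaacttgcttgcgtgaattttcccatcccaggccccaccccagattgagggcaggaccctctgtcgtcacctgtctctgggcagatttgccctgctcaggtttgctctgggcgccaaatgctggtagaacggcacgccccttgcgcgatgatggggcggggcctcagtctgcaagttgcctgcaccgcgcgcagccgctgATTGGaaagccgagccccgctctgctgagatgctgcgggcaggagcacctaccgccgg
Psmb8, chr17:34197945-34198244, plus strand: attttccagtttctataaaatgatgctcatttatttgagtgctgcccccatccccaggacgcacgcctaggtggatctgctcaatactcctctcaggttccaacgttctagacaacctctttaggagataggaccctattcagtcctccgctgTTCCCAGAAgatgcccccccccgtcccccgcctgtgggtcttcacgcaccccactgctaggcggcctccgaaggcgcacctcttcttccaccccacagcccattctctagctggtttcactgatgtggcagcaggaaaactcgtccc
Psme1, chr14:55578244-55578543, plus strand: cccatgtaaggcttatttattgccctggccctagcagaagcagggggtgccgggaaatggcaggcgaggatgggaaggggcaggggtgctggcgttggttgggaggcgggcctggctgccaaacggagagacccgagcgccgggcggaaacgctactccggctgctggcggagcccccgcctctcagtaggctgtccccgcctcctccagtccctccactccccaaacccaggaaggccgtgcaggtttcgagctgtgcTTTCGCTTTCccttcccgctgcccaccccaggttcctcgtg
Psma1, chr7:114276067-114276366, minus strand: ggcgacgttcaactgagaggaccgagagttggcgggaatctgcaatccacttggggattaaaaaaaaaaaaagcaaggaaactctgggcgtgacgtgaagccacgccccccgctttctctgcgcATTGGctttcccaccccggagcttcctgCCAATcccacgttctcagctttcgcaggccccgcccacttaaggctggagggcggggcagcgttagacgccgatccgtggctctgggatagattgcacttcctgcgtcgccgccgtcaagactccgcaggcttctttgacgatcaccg
The window of Psmb8 held a gamma-activated site, that of Psme1 an interferon-stimulated response element, that of Psmb9 an NF-Y box (read on the minus strand as ATTGG) and that of Psma1 an NF-Y box on each strand. The windows of Psmb9 and of Tap1, the peptide transporter gene transcribed away from it on the opposite strand, overlapped by 275 bases.

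Promoter windows were available for 41 of the 49 genes, 45 windows in all. The antioxidant response element core, which the proteasome-inducing factors Nfe2l1 and Nfe2l2 read, was in 18 of the 45 windows (40%) and in 27.8% of all 32851 windows. The interferon-stimulated response element was in 5 windows (11.1%, against 3.44% of all), those of Psme1, Psmb3, Psmd4, Psmd9 and Psmg4. The gamma-activated site was in 3 windows, those of Psmb8, Psmd2 and Psmg1 (6.67%, against 8.3% of all). The NF-Y box was in 16 windows (35.6%, against 37.4% of all). A match is a description of the letters in the window and was not tested as a binding site.

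On activation, proteasome genes were called higher in both genotypes, and few were called lower. Between activated KO and native KO cells 10 of the 49 genes (20.4%) rose at an adjusted p under 0.05 (limma, Benjamini-Hochberg over all 19938 genes), where 8.72% of all named genes rose. Psmd9 was the 1 gene that fell, where 11.4% of all genes fell, so that 11 of the 49 were called in either direction, as were 20.1% of all genes. Between activated WT and native WT cells 15 of the 49 (30.6%) rose and 0 fell, where 9.72% of all genes rose and 10.9% fell (20.6% in either direction). At an unadjusted p under 0.05 the counts were 19 of 49 in KO cells (29.8% of all genes) and 23 of 49 in WT cells (30.4% of all), in either direction. The median log2 difference of the 49 genes was 0.29 in KO cells, with 0.02 over all genes, and 0.37 in WT cells, with -0.02 over all genes. In each genotype 37 of the 49 differences were above 0, as were 53.9% of all differences in KO cells and 46% in WT cells. In these bulk samples, fewer cells of a type and less RNA per cell cannot be told apart.

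The genes called higher in both genotypes were Psma1, Psma5, Psmb2, Psmb5, Psmd2, Psmd3, Psmd8, Psmd14 and Psmc3ip. These 9 made up 90% of the 10 called in KO cells and 60% of the 15 called in WT cells. Psmd7 was called only in the KO comparison, and Psmb8, Psmb9, Psma7, Psmb1, Psmb3 and Psmg1 only in the WT comparison, but the difference between the genotypes was itself tested and called for none of them. Leaving out each of the 12 arrays in turn, the calls of Psma1 and Psmd2 in KO cells and of Psma1, Psma5, Psma7, Psmb2, Psmb3, Psmb5 and Psmb8 in WT cells always held, and every other call was lost at least once. The 3 arrays of a state did not overlap with those of the other for 21 genes that were higher in activated KO cells (13.8% of all genes) and 18 that were higher in activated WT cells (17.5% of all). In the opposite direction the arrays were apart for Psme1 and Psmd4 in KO cells (17% of all genes) and for Psmd9 in WT cells (23.4% of all).

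**Figure D1:**
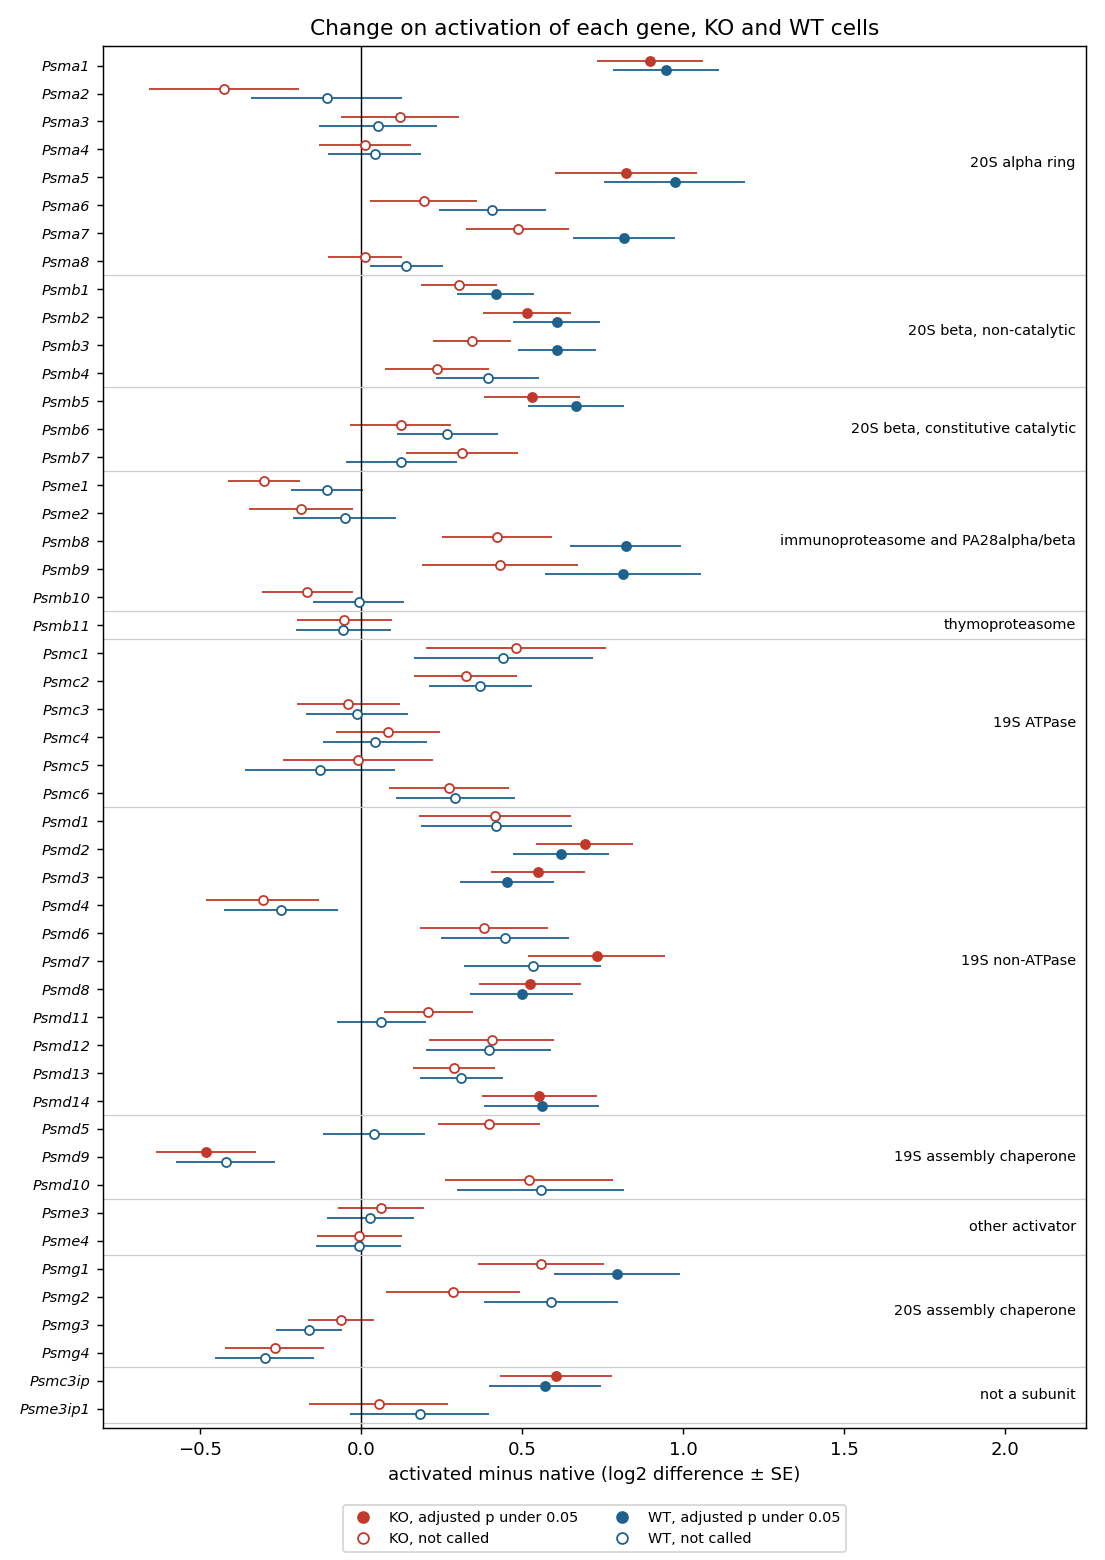
Log2 difference between activated and native cells (horizontal axis, ± SE of the limma fit) for each of the 49 genes, grouped by role. Red is KO and blue is WT, and filled points mark an adjusted p under 0.05. Psma1 and Psma5 lie farthest to the right in both genotypes, and Psmd9 lies left of 0 in both.

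The share of rises among all calls depended on how the arrays were scaled to each other. Of all genes called on activation, 43.5% were higher in KO cells and 47.2% in WT cells on the deposited values. After quantile normalization these shares were 55.3% and 58.6%, and after centring each array on its median they were 52.5% and 56.3%. The number of proteasome genes called higher was 19 in KO and 24 in WT cells after quantile normalization, where 13.3% and 14.6% of all genes were. After centring it was 12 in KO and 15 in WT cells, where 9.48% and 10.3% of all genes were called higher. None of the 49 was called lower under either scaling. Of all genes, 10.7% (KO) and 10.3% (WT) were called lower after quantile normalization, and 8.58% and 8.01% after centring.

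Among the 5 interferon-inducible genes, the catalytic subunits Psmb8 and Psmb9 rose on activation in WT cells, while Psmb10, Psme1 and Psme2 were not called in either genotype. Psmb8 encodes the inducible chymotrypsin-like subunit LMP7. Its level was 9.95, 10.08 and 9.37 on the activated KO arrays, against 9.53, 9.24 and 9.36 on the native KO arrays. On the activated WT arrays it was 9.97, 9.9998 and 10.16, against 9.24, 9.06 and 9.36 on the native WT arrays. The WT arrays of the states were apart, whereas activated KO array 3 lay within the range of the native KO arrays and the other activated KO arrays lay above it. The difference was 0.42 ± 0.17 in KO cells (SE, limma adjusted p = 0.116), a 1.34-fold ratio. In WT cells it was 0.82 ± 0.17 (limma adjusted p = 0.00506), a 1.77-fold ratio, and this call held when any of the 12 arrays was left out. Without activated KO array 3 the KO difference was 0.64, with a limma adjusted p of 0.00266.

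Psmb9, the inducible subunit LMP2 that takes the place of the caspase-like Psmb6, followed the same arrays. It was at 10.26, 10.50 and 9.44 on the activated KO arrays, against 9.74, 9.36 and 9.80 on the native KO arrays. Activated WT arrays had 10.35, 10.44 and 10.26, against 9.64, 9.22 and 9.74 on native WT arrays. Again only activated KO array 3 of the activated arrays fell among the native values. The difference was 0.43 ± 0.24 in KO cells (SE, limma adjusted p = 0.276), and 0.74 without activated KO array 3 (limma adjusted p = 0.00798). In WT cells it was 0.81 ± 0.24 (limma adjusted p = 0.0322). That WT call was lost when any of the 3 activated WT arrays, native WT array 1 or native WT array 2 was left out, with an adjusted p of up to 0.139.

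Activated KO array 3, the one activated array that lay among the native values for Psmb8 and Psmb9, also differed in T cell markers. The mean level of 9 CD8 T cell markers was 10.67 on activated KO array 3, against 11.32 and 11.72 on the other activated KO arrays and 11.39 to 11.73 on the activated WT arrays. The mean over the 49 proteasome genes was 9.41 there, against 9.71 and 9.47 on the other activated KO arrays and 9.30 to 9.77 on the activated WT arrays. Over the 5 inducible genes alone the mean was 9.73 there. It was 10.18 and 10.15 on the other activated KO arrays and 10.12 to 10.19 on the activated WT arrays. The part of this array's quality in the result for Psmb8 and Psmb9 was not tested.

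Psmb10, the inducible trypsin-like subunit MECL-1, did not share the rise of Psmb8 and Psmb9. It had 8.85, 8.76 and 8.76 on the activated KO arrays, against 9.23, 8.85 and 8.79 on the native KO arrays. Activated WT arrays had 8.88, 8.62 and 8.97, against 8.97, 8.67 and 8.85 on native WT arrays. The states overlapped in both genotypes, and the difference was -0.17 ± 0.14 in KO cells and -0.01 ± 0.14 in WT cells (SE, limma adjusted p = 0.52 and 0.987). Its 95% interval in WT cells ran from -0.32 to 0.30. After quantile normalization the sign turned, with 0.02 in KO and 0.16 in WT cells, and after centring it turned in WT cells (0.06).

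Psme1 encodes the alpha subunit of the PA28 activator, a ring that caps the core and opens its gate. It stood at 10.85, 10.73 and 10.81 on the activated KO arrays, against 11.03, 11.14 and 11.11 on the native KO arrays. On activated WT arrays the level was 10.81, 10.85 and 10.96, against 11.01, 10.77 and 11.16 on native WT arrays. The KO arrays of the states were apart, with the activated ones lower, and the WT arrays overlapped. Neither difference was called, at -0.30 ± 0.11 in KO cells (SE, limma adjusted p = 0.0868) and -0.11 ± 0.11 in WT cells (limma adjusted p = 0.635).

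Psme2, the beta subunit of the same ring, overlapped between the states in both genotypes. It was at 10.96, 10.67 and 10.27 on the activated KO arrays, against 10.91, 10.69 and 10.87 on the native KO arrays. Activated WT arrays had 10.83, 10.67 and 10.58, against 10.86, 10.60 and 10.77 on native WT arrays. Its differences were -0.19 ± 0.16 in KO cells and -0.05 ± 0.16 in WT cells (SE, limma adjusted p = 0.528 and 0.904), the second of which was 0.02 after centring. A further transcript cluster named for both Psme2 and its near copy Psme2b fell outside the naming rule. Its differences were -0.44 ± 0.24 in KO cells and -0.36 ± 0.24 in WT cells (SE, limma adjusted p = 0.253 and 0.362 over all rows), and signal from these copies may not be separable.

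**Figure D2:**
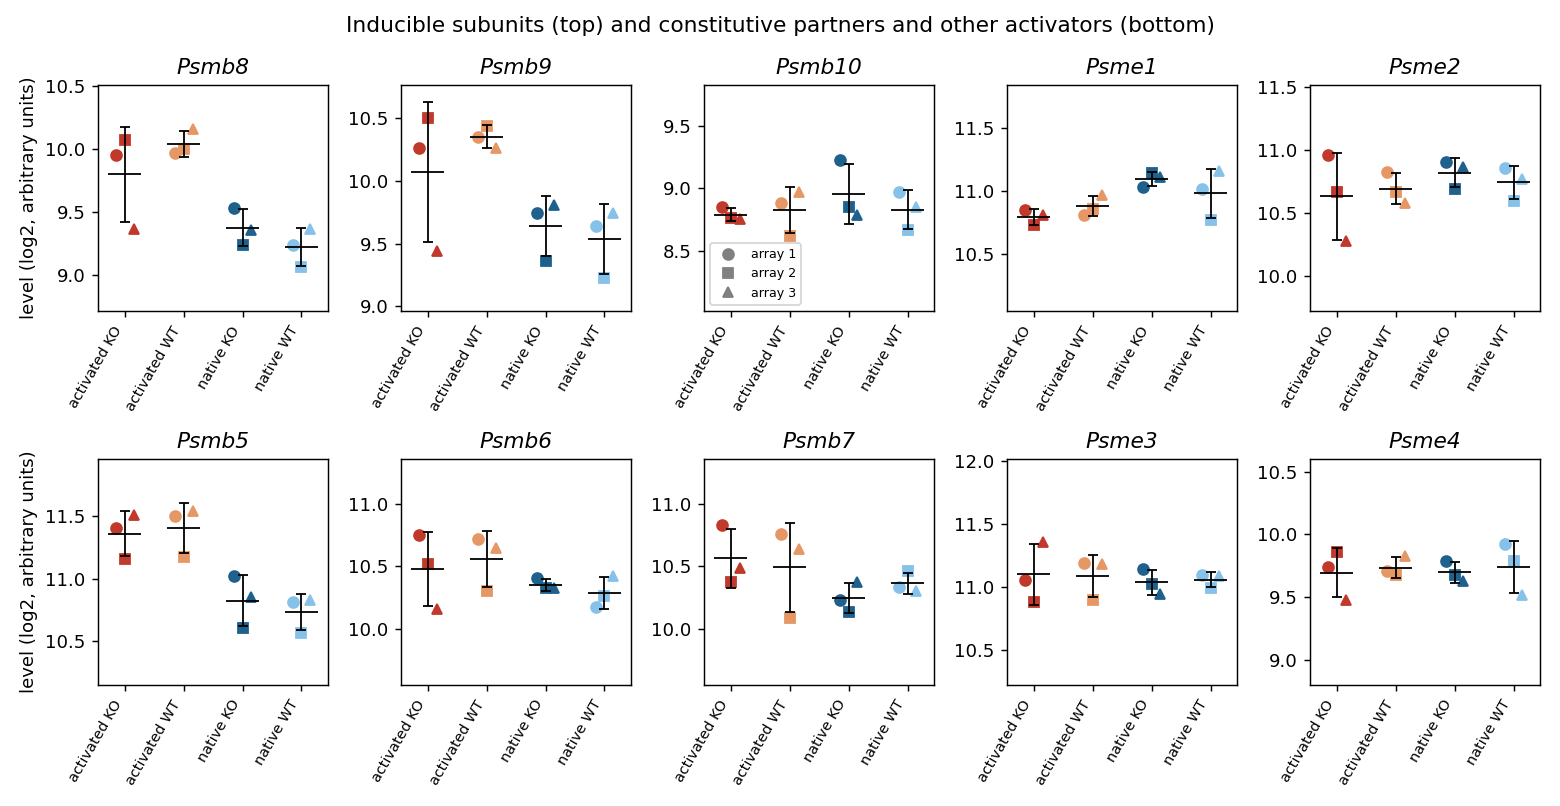
Log2 level on each array (vertical axis, 1 panel per gene, each spanning the same range) for the inducible genes (top) and for their constitutive partners and the other activators (bottom). Marker shapes give the array number, and bars give the mean ± SD of 3 arrays. For Psmb8 and Psmb9 the activated KO triangle (array 3) lies with the native arrays.

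Of the constitutive partners of the inducible catalytic subunits, 1 of 3 was called higher in each genotype. Over all genes 8.72% rose in KO and 9.72% in WT cells. All 3 partners had differences above 0 in both genotypes, as did 53.9% (KO) and 46% (WT) of all genes. Psmb5, the chymotrypsin-like subunit that Psmb8 replaces, rose in both genotypes. It was 11.40, 11.16 and 11.51 on activated KO arrays, against 11.02, 10.61 and 10.85 on native KO arrays, and the difference was 0.53 ± 0.15 (SE, limma adjusted p = 0.0251). On activated WT arrays it was 11.50, 11.17 and 11.54, against 10.81, 10.57 and 10.83 on native WT arrays, a difference of 0.67 ± 0.15 (SE, limma adjusted p = 0.00741). The states were apart in both genotypes. The KO call for Psmb5 was lost without activated KO array 3 (difference 0.46, limma adjusted p = 0.0523), and likewise without activated KO array 1, native KO array 2 or native KO array 3.

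Psmb6, the caspase-like subunit that Psmb9 replaces, was not called. Its level was 10.75, 10.52 and 10.16 on activated KO arrays, against 10.41, 10.33 and 10.32 on native KO arrays. On activated WT arrays it was 10.72, 10.30 and 10.65, against 10.18, 10.27 and 10.42 on native WT arrays. The states overlapped, with differences of 0.12 ± 0.16 in KO and 0.27 ± 0.16 in WT cells (SE). Psmb7, the trypsin-like subunit that Psmb10 replaces, was also not called, with 0.31 ± 0.17 in KO cells and 0.13 ± 0.17 in WT cells (SE). It stood at 10.83, 10.38 and 10.48 on activated KO arrays, against 10.23, 10.14 and 10.38 on native KO arrays. Activated WT arrays had 10.75, 10.09 and 10.64, against 10.33, 10.46 and 10.31 on native WT arrays, so that activated WT array 2 lay below all native WT arrays.

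Each inducible catalytic subunit was also set against its partner on the same array, and for none of the 3 pairs did the change of the ratio on activation pass the test. The log2 ratio of Psmb8 to Psmb5 changed by 0.02 over both genotypes, with -0.11 in KO and 0.15 in WT cells (exact permutation test, two-sided, p = 0.9). The ratio of Psmb9 to Psmb6 changed by 0.43, with 0.31 in KO and 0.55 in WT cells (exact permutation p = 0.03, adjusted over the 3 pairs 0.0675). The ratio of Psmb10 to Psmb7 changed by -0.31, with -0.48 in KO and -0.13 in WT cells (exact permutation p = 0.045, adjusted 0.0675). With state labels permuted within each genotype there were 400 arrangements and the smallest p they can give was 0.005. At an adjusted threshold of 0.05 none of the 3 ratios passed. A ratio of this kind shows unequal change of a pair of genes, and no level of one gene against the other.

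**Figure D3:**
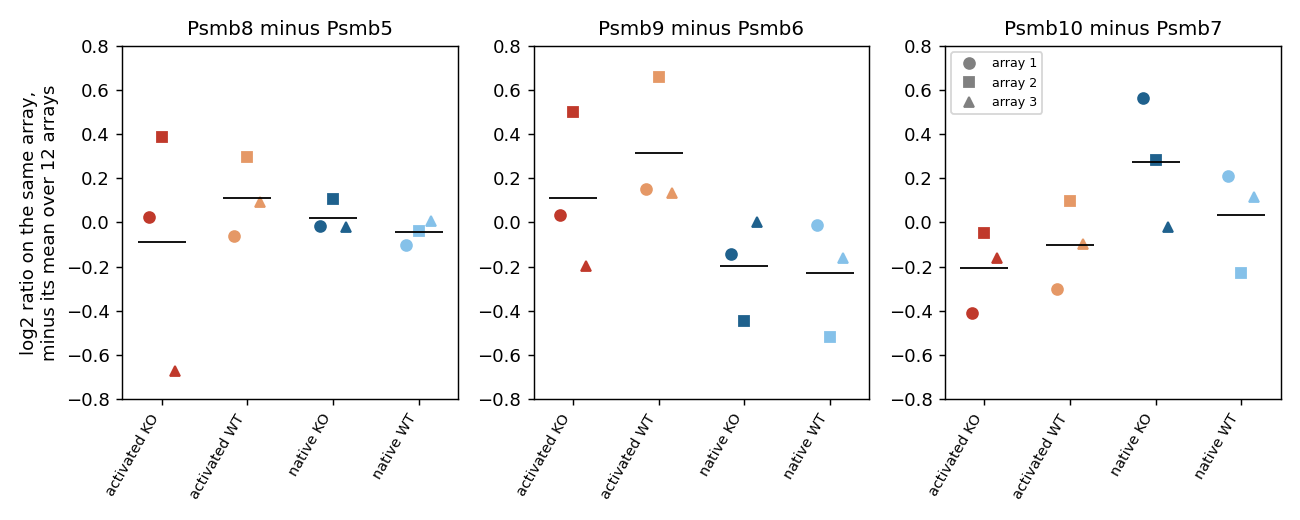
Log2 ratio of each inducible catalytic subunit to its constitutive partner on the same array, minus the mean of that ratio over 12 arrays (vertical axis), in the 4 groups. Points are arrays, shapes give the array number and bars are group means. Activated arrays lie mostly above native ones for Psmb9 to Psmb6 and mostly below for Psmb10 to Psmb7, and the states are apart for the Psmb9 ratio in WT cells and for the Psmb10 ratio in KO cells.

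In the core particle, 2 of the 8 alpha subunit genes rose in KO cells (8.72% of all genes) and 3 rose in WT cells (9.72% of all). Psma1, an alpha ring subunit found in every proteasome, had the largest rise of the 49 genes in KO cells. It was 11.17, 10.83 and 11.05 on activated KO arrays, against 10.20, 10.08 and 10.09 on native KO arrays, and on activated WT arrays it was 11.23, 10.57 and 11.17, against 10.06, 9.94 and 10.13 on native WT arrays. The states were apart in both genotypes, and the difference of 0.90 ± 0.16 in KO cells (SE, limma adjusted p = 0.00246) and of 0.95 ± 0.16 in WT cells (limma adjusted p = 0.00164) kept its call when any array was left out.

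Psma5, another alpha ring subunit, was at 9.56, 8.99 and 8.80 on activated KO arrays, against 8.36, 8.20 and 8.32 on native KO arrays. Activated WT arrays had 9.63, 8.86 and 8.93, against 8.24, 8.01 and 8.24 on native WT arrays. Array 1 was the highest of the activated arrays in each genotype, and the states were apart in both. The difference was 0.82 ± 0.22 in KO cells (SE, limma adjusted p = 0.0199) and 0.97 ± 0.22 in WT cells (limma adjusted p = 0.00787). A second, dimmer transcript cluster of Psma5 differed by 0.46 in KO cells and was not called there (limma adjusted p = 0.108 over all rows), and rose by 0.73 in WT cells (limma adjusted p = 0.0152). Psma7, also of the alpha ring, differed by 0.49 ± 0.16 in KO cells (SE, limma adjusted p = 0.0515) and rose by 0.82 ± 0.16 in WT cells (limma adjusted p = 0.00342).

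The other alpha subunits were not called in either genotype. Psma2 differed by -0.43 ± 0.23 in KO cells and -0.11 ± 0.23 in WT cells (SE, not called), and its KO value was -0.12 without activated KO array 3, where it stood at 8.82 against 9.76 and 9.70 on the other activated KO arrays. Psma3, Psma4 and Psma6 had differences between 0.01 and 0.41, none of them called. The 0.41 was that of Psma6 in WT cells, where the states were apart. Psma8, a testis form of an alpha ring subunit, was at background in all 4 groups.

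Of the 4 beta subunits without a catalytic site, Psmb2 rose in both genotypes. It was 11.87, 11.64 and 11.47 on activated KO arrays, against 11.25, 11.14 and 11.04 on native KO arrays, a difference of 0.52 ± 0.14 (SE, limma adjusted p = 0.0184). In WT cells it differed by 0.61 ± 0.14 (limma adjusted p = 0.00747). Psmb3 rose by 0.61 ± 0.12 in WT cells (SE, limma adjusted p = 0.00385) and differed by 0.35 ± 0.12 in KO cells (limma adjusted p = 0.0678). Psmb1 rose by 0.42 in WT cells (limma adjusted p = 0.0261) and differed by 0.30 in KO cells, and Psmb4 was not called, with 0.24 in KO and 0.39 in WT cells. Psmb11, the catalytic subunit of the thymoproteasome of cortical thymic epithelium, was at background in all 4 groups.

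In the 19S cap 5 of 11 non-ATPase subunit genes rose in KO cells (8.72% of all genes rose) and 4 of 11 in WT cells (9.72% of all genes). Of the 6 ATPase genes 0 were called and 4 were above 0 in each genotype, and the difference between the subunit classes was not tested. Psmd2, a large scaffold subunit at which ubiquitin-like shuttle proteins dock, was 11.26, 10.89 and 11.05 on activated KO arrays, against 10.49, 10.20 and 10.43 on native KO arrays. On activated WT arrays it was 11.24, 10.72 and 10.89, against 10.40, 10.22 and 10.36 on native WT arrays. The states were apart in both genotypes, with differences of 0.69 ± 0.15 in KO cells (SE, limma adjusted p = 0.00634) and 0.62 ± 0.15 in WT cells (limma adjusted p = 0.0113). The KO call held when any array was left out, and the WT call was lost without native WT array 2 (limma adjusted p = 0.0537). A second transcript cluster of Psmd2 had smaller differences, 0.44 in KO cells (limma adjusted p = 0.0433 over all rows) and 0.41 in WT cells (limma adjusted p = 0.0546).

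Psmd14, the deubiquitinase of the cap that removes ubiquitin chains from substrates, rose by 0.55 ± 0.18 in KO cells (SE, limma adjusted p = 0.0462) and 0.56 ± 0.18 in WT cells (limma adjusted p = 0.0436). Psmd7, its partner in the cap, rose by 0.73 ± 0.21 in KO cells (SE, limma adjusted p = 0.0297) and differed by 0.53 ± 0.21 in WT cells (limma adjusted p = 0.106). Without activated KO array 3, where it was highest at 10.23, the KO difference of Psmd7 was 0.60 and was not called (limma adjusted p = 0.073). The call of Psmd14 was lost without any of 9 of the 12 arrays in KO cells (limma adjusted p of up to 0.156), and without any of 8 in WT cells (limma adjusted p of up to 0.174). The lid subunits Psmd3 and Psmd8 rose by 0.55 and 0.53 in KO cells and by 0.45 and 0.50 in WT cells. Leaving out 1 array at a time, the call of Psmd3 was lost without any of 3 arrays in KO and any of 9 in WT cells, and that of Psmd8 without any of 7 in KO and any of 8 in WT cells.

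Psmd4, a ubiquitin receptor of the cap, was the one non-ATPase subunit with differences below 0, at -0.30 ± 0.18 in KO and -0.25 ± 0.18 in WT cells (SE, not called). On activated KO array 3 it was 7.92, against 8.59 and 8.57 on the other activated KO arrays and 8.59 to 8.71 on the native KO arrays. The remaining non-ATPase subunits, Psmd1, Psmd6, Psmd11, Psmd12 and Psmd13, differed by 0.06 to 0.45 and were not called. Among the 6 ATPases that unfold substrates, Psmc1 had the largest differences, 0.48 ± 0.28 in KO and 0.44 ± 0.28 in WT cells (SE), and Psmc3, Psmc4 and Psmc5 lay between -0.13 and 0.09.

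Assembly chaperones, which help build the particle and are absent from the finished enzyme, moved in both directions. Psmd9, a chaperone of the 19S base, was the one gene of the 49 that fell. It was 7.31, 6.75 and 6.74 on activated KO arrays, against 7.30, 7.44 and 7.5 on native KO arrays, a difference of -0.48 ± 0.15 (SE, limma adjusted p = 0.0465). Activated WT arrays had 7.16, 6.83 and 6.93, against 7.36, 7.45 and 7.37 on native WT arrays, a difference of -0.42 ± 0.15 (limma adjusted p = 0.0796). The KO states overlapped through array 1 and the WT states were apart. The KO call was lost when any of 9 arrays was left out (limma adjusted p of up to 0.143). Activated KO array 3 was among these, and without it the KO difference was -0.38. On that array Psmd9 lay under the olfactory receptor percentile, which was 7.31 there.

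The other chaperones of the base, Psmd5 and Psmd10, differed by 0.40 and 0.52 in KO cells and by 0.04 and 0.56 in WT cells, without a call. Psmg1, which with Psmg2 helps assemble the alpha ring, rose in WT cells. It was 9.10, 8.94 and 8.41 on activated KO arrays, against 8.30, 8.17 and 8.30 on native KO arrays, a difference of 0.56 ± 0.20 (SE, limma adjusted p = 0.0678), and 0.76 without activated KO array 3. In WT cells the difference of Psmg1 was 0.80 ± 0.20 (limma adjusted p = 0.013). Psmg2 differed by 0.29 in KO and 0.59 in WT cells, and Psmg4 by -0.27 in KO and -0.30 in WT cells, none of them called. Psmg3 was at background in all 4 groups.

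The activators outside the inducible set were not called, with arrays of the states overlapping. Psme3, the PA28gamma subunit of nuclear proteasomes, was 11.06, 10.88 and 11.36 on activated KO arrays, against 11.14, 11.02 and 10.94 on native KO arrays, and 11.19, 10.90 and 11.18 on activated WT arrays, against 11.09, 10.99 and 11.09 on native WT arrays. Psme4, the activator PA200, was 9.74, 9.86 and 9.48 on activated KO arrays, against 9.79, 9.68 and 9.63 on native KO arrays, and 9.71, 9.67 and 9.83 on activated WT arrays, against 9.92, 9.79 and 9.52 on native WT arrays. Differences of both genes were between -0.01 and 0.06, with SEs of 0.13. Of the 2 genes that are not subunits, Psmc3ip rose in both genotypes. It was at background on the native KO arrays, and with these set to the background percentile its KO difference was 0.31 on the log2 scale. This is no lower bound, because Psmc3ip on activated KO array 3 (6.36) was itself under the percentile there (7.31). In WT cells its difference was 0.57 ± 0.17 (SE, limma adjusted p = 0.0361). Psme3ip1 was not called.

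Across arrays, the activated samples varied more than the native ones. The median SD of the 49 genes over 3 arrays was 0.233 in activated KO, 0.268 in activated WT, 0.109 in native KO and 0.122 in native WT cells. In activated WT cells this was above the median SD of all genes (0.159), and in activated KO cells it was close to it (0.247). Array 1 was the highest activated array for 38 of the 49 genes in KO cells and 34 in WT cells. In WT cells array 2 was the lowest activated array for 38 of the 49, and in KO cells arrays 2 and 3 were lowest for 24 each. The mean over the 49 genes was 9.71, 9.47 and 9.41 on the activated KO arrays, 9.77, 9.30 and 9.60 on the activated WT arrays, 9.35, 9.23 and 9.29 on the native KO arrays and 9.32, 9.18 and 9.27 on the native WT arrays. Activated WT array 2 thus lay within the range of the native arrays.

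**Figure D4:**
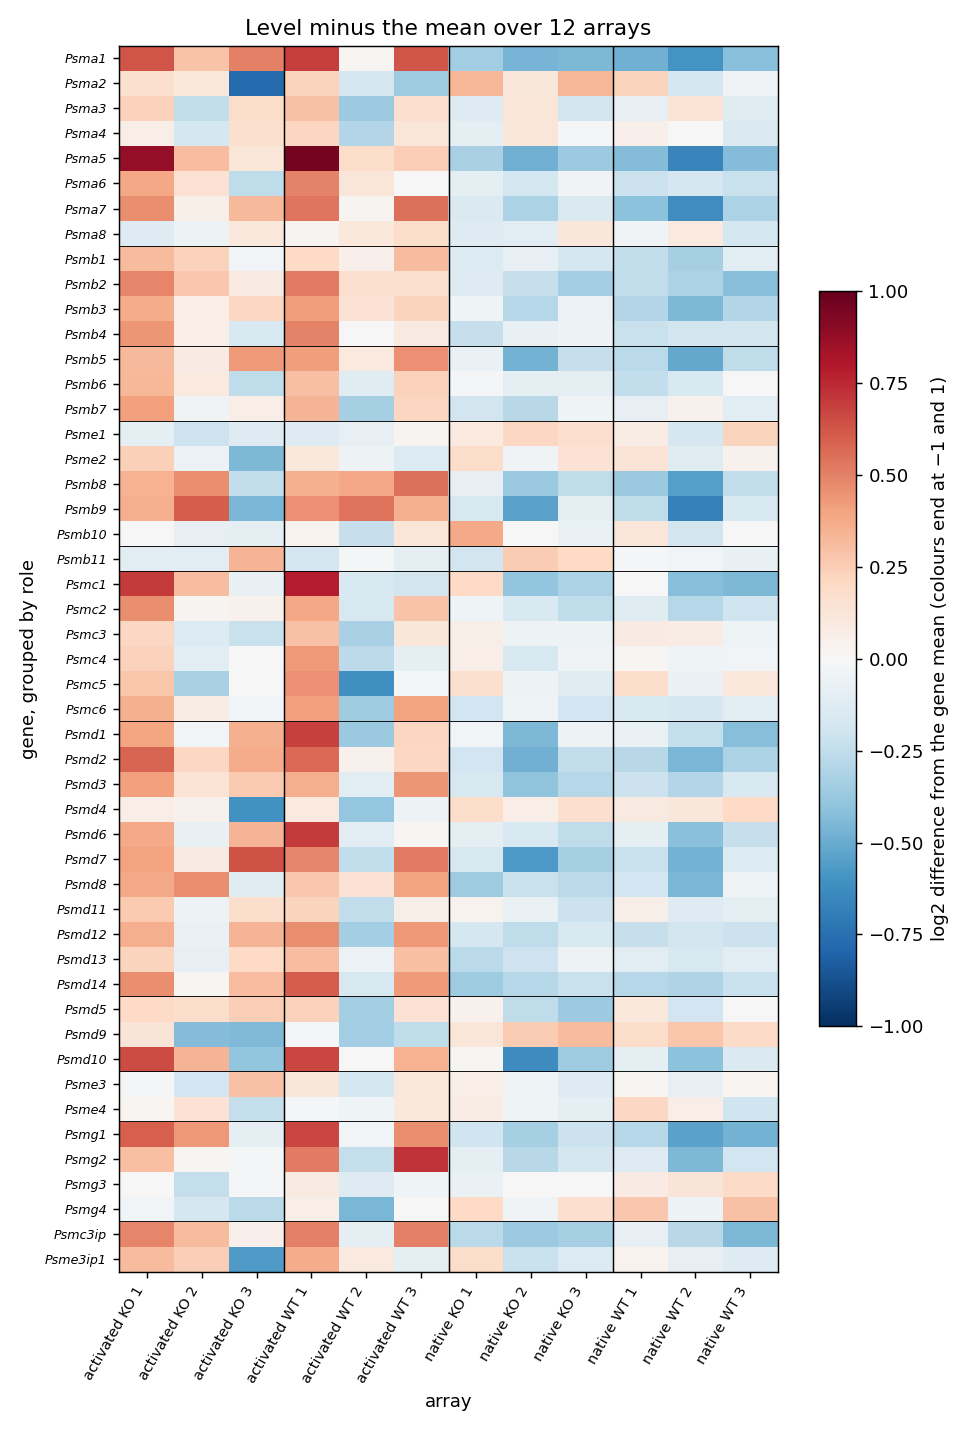
Log2 level of each gene minus its mean over 12 arrays (colour, red above and blue below the mean), with genes in rows by role and arrays in columns by group. Activated arrays 1 are red for most genes in both genotypes, and activated WT array 2 is below the mean for all 6 ATPases and 9 of the 11 non-ATPase subunits. Psmb8 and Psmb9 are blue on activated KO array 3.

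Between KO and WT cells no proteasome gene was called in either state. In native cells 0 of 49 genes had an adjusted p under 0.05 and 0 had an unadjusted p under 0.05 (limma), where 0% of all genes were called and 0.657% had an unadjusted p under 0.05. In activated cells 0 of 49 were called and 0 had an unadjusted p under 0.05, where these shares of all genes were 0% and 0.436%. The median difference of KO from WT was -0.03 in activated cells (-0.01 over all genes) and 0.03 in native cells (-0.02 over all genes). It was above 0 for 19 of the 49 genes in activated cells (47.7% of all genes) and for 30 in native cells (40.1% of all genes). A missing call does not show that the genotypes were alike, and the intervals below come from the fit without pairing.

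For Psmb8 the difference of KO from WT was -0.24 in activated cells, with a 95% interval of -0.62 to 0.13, and 0.16 in native cells, with an interval of -0.22 to 0.53. Psmb9 differed by -0.28 in activated cells (-0.81 to 0.25) and by 0.10 in native cells (-0.43 to 0.63). Without activated KO array 3 the activated differences were -0.03 for Psmb8 and 0.03 for Psmb9. Psmb10, Psme1 and Psme2 differed by -0.03, -0.08 and -0.06 in activated cells and by 0.13, 0.11 and 0.08 in native cells. The 5 inducible genes were thus above 0 in native cells and below 0 in activated cells, by amounts within their intervals. In native cells Psmb10 was -0.01 without native KO array 1 and Psmb9 was -0.06 without native WT array 2. In activated cells 1 of the 5, Psmb10, was above 0 after quantile normalization, and 2 of the 5, Psmb9 and Psme2, were above 0 without activated KO array 3. Native KO and WT arrays of the same experiment number deviated together, though arrays 3 only weakly (correlation 0.16). With that number as a block the native interval was -0.25 to 0.56 for Psmb8 and -0.29 to 0.49 for Psmb9. In that blocked fit 0 of the 49 genes had an unadjusted p under 0.05 (limma, 0.923% of all genes). KO was above WT in all 3 native pairs for 11 of the 49 genes (8.95% of all genes), among them Psmb3, Psma2, Psma7, Psmb9 and Psme2, and below it in all 3 for 4 (17.2% of all). The blocked difference of Psma7 was 0.25 (95% interval -0.0012 to 0.49) and that of Psmb3 was 0.22 (-0.01 to 0.45). In native cells Psmb3 was apart between the genotypes, with 12.06, 11.82 and 12.05 on KO arrays, against 11.81, 11.66 and 11.81 on WT arrays (difference 0.22 ± 0.12, SE), where 2.12% of all genes were apart in that direction. Psmg3 was apart in the other direction (4.92% of all), at background. In activated cells 0 genes of the 49 were apart, against 0.858% of all genes higher and 0.888% lower in KO cells.

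The change on activation did not differ detectably between the genotypes for any of the 49 genes. The interaction, the change in KO cells minus that in WT cells, was called for 0 of 49 genes and 0 of all genes (limma), and 0 of the 49 and 0.431% of all genes had an unadjusted p under 0.05. It was -0.40 ± 0.24 for Psmb8 (SE, 95% interval -0.93 to 0.13) and -0.38 ± 0.34 for Psmb9 (-1.13 to 0.36). Without activated KO array 3 these values were -0.18 and -0.07. It was above 0 for 18 of the 49 genes and for 53.4% of all genes. The largest positive value was 0.36 ± 0.23 for Psmd5 (SE).

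**Figure D5:**
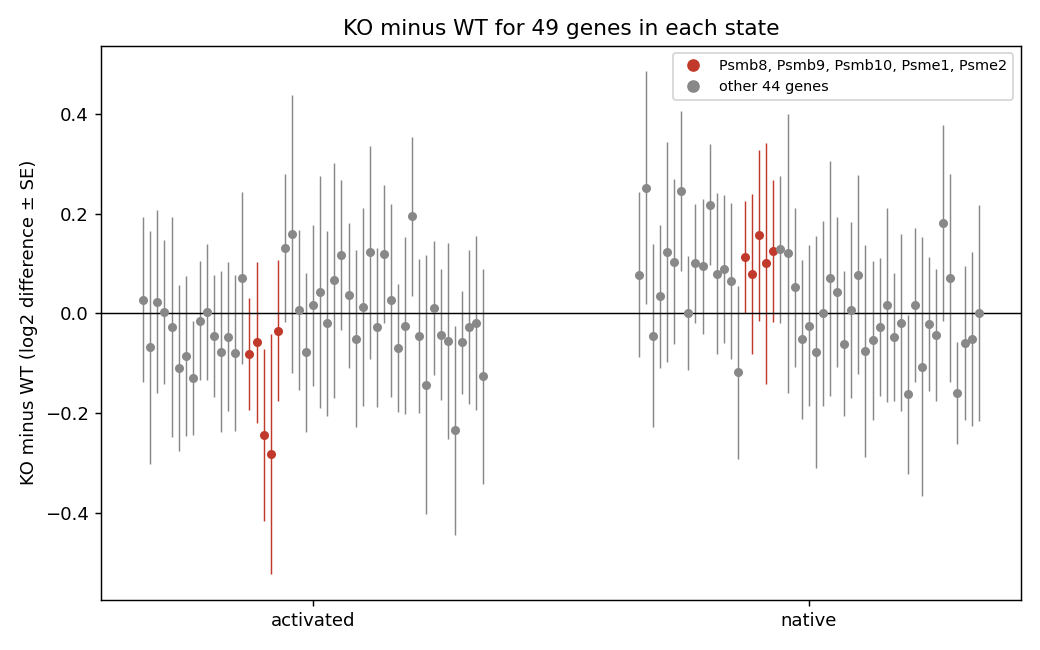
Log2 difference of KO from WT (vertical axis, ± SE of the limma fit) for the 49 genes in activated (left) and native (right) cells, in the order of roles used for the plot of activation differences. Red marks the 5 inducible genes, which lie below 0 in activated cells (2 of them above 0 without activated KO array 3, and Psmb10 after quantile normalization) and above 0 in native cells (Psmb10 and Psmb9 each below 0 without 1 native array). No gene was called.

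Genes around the proteasome were described through lists written with earlier results of these data known. Of 14 measured cofactors, 3 rose and 2 fell in KO cells, where 8.72% of all genes rose and 11.4% fell, and 3 rose and 4 fell in WT cells, where 9.72% of all rose and 10.9% fell. The 2 falls in KO cells are near the share over all genes. Uchl5 and Usp14, the deubiquitinases that dock on the cap, rose by 0.86 and 0.67 in KO cells and by 0.68 and 0.54 in WT cells, and Ecpas, a scaffold that binds the particle, rose by 0.65 and 0.73. Zfand2a, a stress-induced protein of the cap, fell, with differences of -1.98 in KO and -2.10 in WT cells, and so did Ubqln2, a shuttle for ubiquitinated proteins, with -0.83 and -0.96. Each of these had a limma adjusted p under 0.05.

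Of 12 genes for transcriptional control of the proteasome, 1 rose and 2 fell in KO cells (8.72% and 11.4% of all genes), and 2 rose and 1 fell in WT cells (9.72% and 10.9% of all), counts near the shares over all genes. The small Maf proteins, which pair with Nfe2l1 and Nfe2l2 on the antioxidant response element, went different ways: Mafk fell, with -2.15 in KO and -2.04 in WT cells, and Mafg rose by 0.85 in KO and 0.75 in WT cells. Maff fell by 1.49 in KO cells. It was not called in WT cells, at 6.06, 5.76 and 6.77 on activated arrays, against 6.71, 8.24 and 7.60 on native arrays. Keap1, the inhibitor of Nfe2l2, rose by 0.53 in WT cells. In KO cells Keap1 was not called, at 7.92, 8.01 and 7.28 on activated arrays, against 7.52, 7.37 and 7.30 on native arrays. On activated KO array 3 Maff and Keap1 lay under the percentile there (7.31). Of 8 genes for ubiquitin supply and unfolding, 3 rose in each genotype (8.72% of all genes in KO and 9.72% in WT cells) and 1 fell in KO cells (11.4% of all). Ube2c, the ubiquitin-conjugating enzyme of mitotic exit, rose by 2.04 in KO and 2.33 in WT cells.

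Genes of antigen processing and of the interferon-gamma axis were called in both directions. Of 14 genes for MHC class I antigen processing, 4 rose and 4 fell in KO cells (8.72% and 11.4% of all genes) and 2 rose and 2 fell in WT cells (9.72% and 10.9% of all). Lap3 and Thop1, cytosolic peptidases, rose in both genotypes, Lap3 by 0.82 in KO and 0.85 in WT cells. Thop1 was at background on native arrays. With these set to the background percentile, its differences were 0.49 in KO and 0.65 in WT cells. These are no lower bounds, because Thop1 was itself under the percentile on activated KO array 3 and on activated WT array 2. Erap1, which trims peptides in the endoplasmic reticulum, fell, with -0.55 in KO and -0.71 in WT cells, as did Tapbp, which helps load them onto class I molecules, with -0.39 and -0.42. Tap1, whose promoter window overlaps that of Psmb9, differed by -0.06 ± 0.21 in KO cells and 0.06 ± 0.21 in WT cells (SE, not called). Of 16 genes of the interferon-gamma axis, 2 rose and 3 fell in KO cells (8.72% and 11.4% of all genes) and 2 rose and 4 fell in WT cells (9.72% and 10.9% of all), so that the rises are near the share over all genes. Irf8 rose by 2.92 in KO and 3.15 in WT cells, Ifngr2, a chain of the interferon-gamma receptor, fell, with -3.49 and -3.92, and so did Irf1, an activator of Psmb9 and Tap1 transcription, with -1.88 and -1.43.

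Cell cycle genes and markers of other cells moved with the state. Over all genes 8.72% rose and 11.4% fell in KO cells, and 9.72% rose and 10.9% fell in WT cells. Of 20 cell cycle genes 19 rose in each genotype, with a median difference of 2.65 in KO and 2.95 in WT cells. Of 9 CD8 T cell markers, Cd8a, Cd247 and Cd5 fell in KO cells and 0 in WT cells. Each of these was lowest on activated KO array 3, at 10.77, 8.74 and 9.48. All 12 neutrophil markers were at background in both activated groups. Their summed linear level was 942 to 6923 on native KO arrays, against 532 to 1849 on native WT arrays, and 6 of the 12 fell on activation in KO cells. Of 15 macrophage and dendritic cell markers, which bear on antigen-presenting cells left from culture, 13 were at background in activated KO, 14 in activated WT and 11 in each native group, and their summed level was 1001 to 1765 in activated KO, 1064 to 1485 in activated WT, 1187 to 1801 in native KO and 942 to 1269 in native WT cells. Lyz2 and Flt3 were called lower in KO cells (11.4% of all genes) and 0 of the 15 in WT cells (10.9% of all). Cd68 was between 7.96 and 10.13 on every array. Lyz2, a lysozyme of myeloid cells, was 9.62, 6.51 and 9.02 on the native KO arrays, against 7.03, 6.32 and 5.24 on the native WT arrays, and was at background in both activated groups. Csf1r, Cd14, Adgre1, Fcgr1, C1qa, C1qb, C1qc, Flt3, Clec9a, Ms4a7 and Mertk were at background in all 4 groups. Of 6 NK cell markers 3 fell in KO and 2 in WT cells, and their summed level was 1220 to 3434 in activated KO, 702 to 2822 in activated WT, 1345 to 2447 in native KO and 985 to 1359 in native WT cells. Of 8 B cell markers 6 were at background in activated KO, activated WT and native WT cells and 5 in native KO cells, and Cd79b fell in both genotypes. Of 3 CD4 T cell markers Cd4 and Cd40lg were at background in all 4 groups. Zbtb7b rose, by at least 1.42 in WT cells and by 1.06 in KO cells with native arrays set to the background percentile. The KO figure is no lower bound, because Zbtb7b on activated KO array 3 (6.65) was under the percentile there (7.31). The part of these cells in the proteasome values was not tested.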

How the data were processed

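The authors made the deposited table, 35556 log2 values for each of 12 Affymetrix whole-transcript arrays, by RMA in Partek according to the submitters' processing notes, which name no version or option. RMA compresses differences close to background. Symbols came from the platform annotation: 21789 rows had 1 symbol, 1621 several and 12146 none, and the brightest row stood for each of 19938 genes. The model, limma 3.58.1 (lmFit and eBayes, run in R 4.3.3), held all groups and was tested on simulated data. Genes were called at a Benjamini-Hochberg adjusted p under 0.05 over all genes. Errors are SEs of this fit (n = 3 arrays per group), and intervals are at 95%. No filter on dim genes was used.

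Members, lists and roles were chosen with earlier results of these data known. Fully described were the inducible genes, their partners and other activators. Per comparison, the rule added up to 5 called rises and falls (or the 3 smallest p-values), every member of small or opposing role groups, and up to 4 called genes per list. Several further called members were named after their values were seen.

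Native KO and WT arrays with the same number deviated together (correlations 0.58, 0.40 and 0.16, all over 0.1). The lowest of these was close to the 0.13 of native KO array 2 with native WT array 3, which differ in number. Activated KO and WT arrays did so for number 1 (0.69), and not for numbers 2 and 3 (-0.02 and -0.01).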

Additional observations from a re-analysis of the deposited data

How the results depend on the processing

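Under the alternatives, the count of proteasome genes called higher on activation in KO cells was 19 after quantile normalization (13.3% of all genes). It was 30 with array weights estimated gene by gene (chosen after seeing the data, as the usual estimate did not converge), and 6 with only the compared groups in the fit. It was 2 to 14 when each array was left out, with 2 without activated KO array 1, native KO array 2 or native KO array 3. In WT cells the count was 24 after quantile normalization (14.6% of all genes) and 27 with array weights. It was 7 to 21 with an array left out, with 7 without native WT array 2 and 8 without activated WT array 1 or 3. Without activated KO array 3 the counts were 12 in KO and 18 in WT cells, where 13.4% and 13.3% of all genes were called higher. The calls over all genes thus changed with the setting too. Counts given here without that share are therefore no result about the proteasome genes. The single fall in KO cells, Psmd9, was 0 after quantile normalization, centring, trend and robust eBayes, in the fit of all rows of the table and with only the compared groups, and 0 to 1 with an array left out. In WT cells 1 fall appeared with array weights and with only the compared groups, and 0 to 1 with an array left out. The Psmb9 to Psmb6 ratio was 0.47 after quantile normalization and passed (adjusted exact permutation p = 0.03), and it was 0.33 to 0.50 with an array left out. It passed without activated KO array 3. The Psmb10 to Psmb7 ratio was -0.38 to -0.23 with an array left out and passed without native WT array 2 (-0.37, adjusted exact permutation p = 0.045). The Psmb8 to Psmb5 ratio was -0.10 to 0.17 with an array left out. With the replicate number as a block, the counts called higher were 13 in KO and 17 in WT cells. With that block or the experiment number as a block, 0 genes were called between KO and WT cells in either state or in the interaction, and these counts were 0 under all other alternatives too. Of 1620 values of single named genes under alternatives, 1495 kept their direction and side of the threshold, 37 lost a call, 14 gained one and 74 uncalled values changed sign. These pool all comparisons, and between KO and WT cells and in the interaction no value was called in any setting. The pooled count therefore says little about how stable the calls on activation were. Arrays carry no read depth, and Psma8, Psmb11 and Psmg3, at background throughout, could not show a change.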
